A study of Mus musculus with 25 samples.

Results

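The comparison was between livers of Western diet mice that received the NAMPT vector and those that received the empty vector, averaged over both genotypes. It took 22 of the 25 libraries of the series, 11 titled AAV8-NAMPT (6 WT and 5 SIRT1 LKO) and 11 titled AAV8-EV (6 WT and 5 SIRT1 LKO), and fitted 1 vector effect beside a term for genotype. All were livers of C57B/6J mice aged 20 weeks by their labels, grown to about 8 weeks and then kept for 12 weeks with the vector and the diet. Per the study's methods the mice were male, carried floxed Sirt1 alleles, and differed by an Albumin-Cre transgene, which excises Sirt1 in hepatocytes from development on. The WT mice were floxed littermates without Cre. Both vectors were adeno-associated virus serotype 8 given by tail vein, so that every control animal also carried a virus. The NAMPT vector used a thyroxine-binding globulin promoter, which restricts expression to hepatocytes. The other 3 libraries were WT livers with the empty vector on chow and had no NAMPT counterpart. The treatment text of the labels names SIRT1 as the vector's product, whereas the titles and the series text name NAMPT, and the titles were followed here.

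NAMPT (nicotinamide phosphoribosyltransferase) is the rate-limiting enzyme of the salvage pathway that turns nicotinamide back into NAD+. NAD+ is both a redox carrier and the substrate that sirtuin deacetylases and poly-ADP-ribose polymerases consume. SIRT1, the deacetylase whose gene is targeted in the mice labelled LKO, acts on regulators of hepatic fat oxidation, inflammation and the circadian clock, and NAMPT itself oscillates with that clock. Averaging over the genotypes gives the mean difference between the vectors and does not test whether that difference was shared by mice labelled with and without hepatocyte SIRT1.

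Total assigned reads ran from 20166175 to 32937326 per library. The hepatocyte marker genes were abundant throughout, with albumin (Alb) between 31246 and 54144 normalised CPM (read counts scaled to library size). In the NAMPT groups 4 libraries stood apart from the fit, with quality weights below 0.6: WT NAMPT replicates 1, 2 and 6 and LKO NAMPT replicate 3 (0.515, 0.368, 0.512 and 0.377; the others ran from 0.844 to 1.74). LKO NAMPT replicate 3 also had 12.3% of its reads in mitochondrial coding genes, against 4.07% to 8.57% in the others. The first principal component (34.1% of the variance) had WT NAMPT replicates 1 to 4 and LKO NAMPT replicate 1 at one end and WT NAMPT replicate 6 at the other.

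Nampt mRNA was 1.28-fold higher with the NAMPT vector (log2 fold change 0.36 ± 0.11 SE, n = 11 and 11). In WT livers it ran from 38.3 to 54.1 CPM with the empty vector (median 49.2) and from 46.8 to 77.7 with NAMPT (median 58.8). In livers labelled SIRT1 LKO it was 46.0, 46.7, 56.5, 75.6 and 55.7 CPM with the empty vector and 73.6, 83.4, 127, 62.1 and 53.9 with NAMPT. The groups overlapped in both genotypes. The difference passed an exact two-sided permutation test within genotype (mean log2 difference 0.39, p = 0.00672, adjusted p = 0.0202 over the 3 genes tested this way), and it did not pass in the fit over all genes (limma adjusted p = 0.101). Estimates within the genotypes were close, 0.34 ± 0.16 in WT and 0.41 ± 0.16 in LKO (interaction adjusted p = 0.876, limma).

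Sirt1 had a log2 fold change of 0.03 ± 0.08 between the vectors (exact permutation p = 0.340, adjusted p = 0.340). It ran from 7.61 to 9.53 CPM over the WT libraries and from 7.16 to 11.1 over those labelled SIRT1 LKO, so the LKO libraries were not lower. A gene-level count also takes reads from exons outside the deleted part and does not check the deletion. Fgf21, the hepatic fasting hormone, had a median of 6.42 CPM with the empty vector (0.370 to 14.5) and of 7.59 with NAMPT (1.4 to 26.9). Its log2 fold change of 0.55 ± 0.42 did not pass (exact permutation p = 0.291, adjusted p = 0.340). The WT and LKO estimates for Fgf21 were 1.44 and 0.02 (interaction adjusted p = 0.269, limma).

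**Figure D1:**
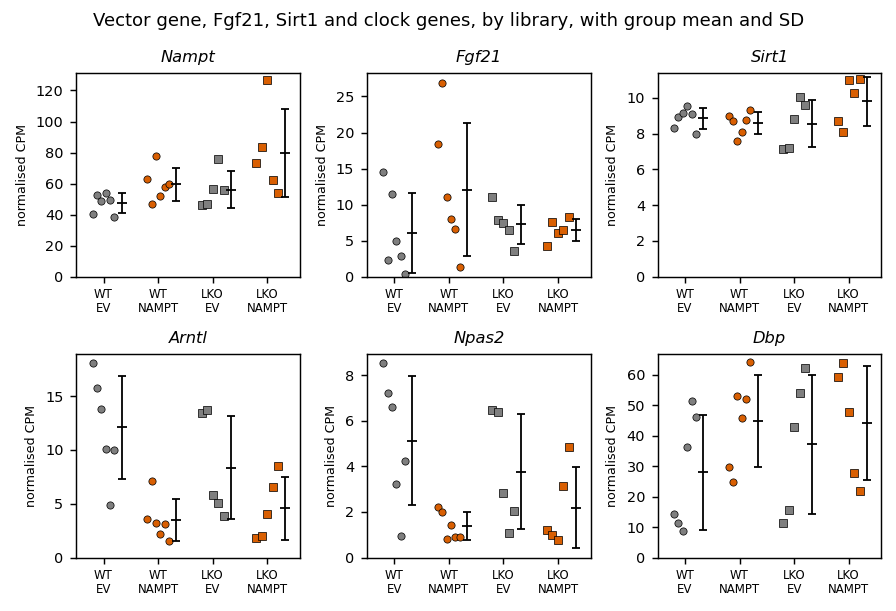
Normalised CPM of Nampt, Fgf21, Sirt1 and the clock genes Arntl, Npas2 and Dbp in each of the 22 libraries (points; circles WT, squares LKO, grey EV, orange NAMPT), with group mean and SD. Nampt reaches 127 CPM in 1 LKO NAMPT library, and Arntl with the NAMPT vector lies at or under 8.48 CPM.

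Over all 13935 genes tested, 7 passed an adjusted p of 0.05 (0.0502%), 5 higher (0.0359%) and 2 lower (0.0144%) with NAMPT (limma with sample quality weights). They were the higher Slc13a5, Lpl, Rbl1, Armcx3 and Gla and the lower Slc17a8 and Ehd3, each at an adjusted p of 0.033. At an adjusted p of 0.1 there were 381 genes (2.73%), and 2525 genes (18.1%) had an unadjusted p under 0.05, 1477 higher (10.6%) and 1048 lower (7.52%). The 7 calls had a narrow margin. No gene was called when any 1 of 11 libraries was left out (WT EV replicates 2, 6 and 7, LKO EV replicates 2, 4 and 5, WT NAMPT replicates 1 to 4 and LKO NAMPT replicate 1), and the 7 were among the genes called without any 1 of the other 11, and leaving out WT NAMPT replicate 6 gave the most, 534 genes. In all 22 fits each of the 7 kept its direction, with an adjusted p of at most 0.135 (limma). The edgeR quasi-likelihood test called 0 genes, with 2399 at an unadjusted p under 0.05, and DESeq2 called 388, the 7 among them.

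Slc13a5 encodes the plasma membrane carrier that brings citrate into hepatocytes, and of the 7 genes it showed the widest change (chr11:72241994-72267222, GRCm38). It was 3.42-fold higher with NAMPT (log2 1.77 ± 0.31). In WT livers it ran from 0.458 to 1.89 CPM with the empty vector and from 1.4 to 5.80 with NAMPT. In LKO livers it was 0.483, 0.301, 0.742, 0.619 and 0.285 CPM with the empty vector and 2.58, 1.41, 0.698, 1.27 and 0.475 with NAMPT. Both genotypes overlapped by their lowest NAMPT libraries, and its level was low in every library. Of the 11 empty vector libraries 10 were under 1 CPM, so that the gene passed the filter (over 1 CPM in 2 or more libraries) through the NAMPT libraries. The estimates were 2.20 ± 0.37 in WT and 1.16 ± 0.48 in LKO.

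Lpl, lipoprotein lipase, hydrolyses triglyceride in circulating lipoproteins and is low in normal adult hepatocytes (chr8:68880491-68907448). It was 2.40-fold higher with NAMPT (log2 1.27 ± 0.23), and of the 7 genes it had the highest level among those that rose. WT livers ran from 25.2 to 76 CPM with the empty vector (median 34.9) and from 35.1 to 174 with NAMPT (median 113). LKO livers were at 41.9, 29.9, 41.4, 17.3 and 25 CPM with the empty vector and at 149, 40.1, 53.5, 65.1 and 76.9 with NAMPT. In each genotype all but 1 or 2 NAMPT libraries lay above every empty vector library. The gene was the only called member of the 28 genes listed for cholesterol efflux and lipoproteins, where 14 had positive and 14 negative estimates.

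Rbl1 encodes p107, a retinoblastoma family protein that represses E2F target genes (chr2:157145893-157204534). It was 1.81-fold higher with NAMPT (log2 0.85 ± 0.15), with estimates of 0.79 in WT and 0.94 in LKO. LKO livers separated without overlap, at 2.70, 2.11, 3.23, 2.40 and 1.83 CPM with the empty vector and 5.69, 4.73, 4.45, 5.88 and 4.0 with NAMPT. WT livers ran from 2.89 to 4.0 CPM with the empty vector and from 2.80 to 10.9 with NAMPT, so that all NAMPT libraries but replicate 6, which was below every control, lay above the controls.

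Armcx3, an X-linked gene for a mitochondrial outer membrane protein (chrX:134756595-134761455), was 1.52-fold higher (log2 0.60 ± 0.11). It ran from 3.13 to 6.25 CPM over the empty vector libraries and from 4.45 to 11.4 over the NAMPT libraries. Gla, also X-linked, encodes the lysosomal alpha-galactosidase A that is deficient in Fabry disease (chrX:134588149-134601125). It was 1.42-fold higher (log2 0.50 ± 0.09). Its LKO libraries did not overlap, at 4.71, 3.86, 4.72, 4.48 and 3.66 CPM with the empty vector and 5.79, 4.83, 5.32, 5.96 and 5.94 with NAMPT. In WT livers it ran from 3.51 to 5.14 and from 4.74 to 8.41 CPM.

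Slc17a8 encodes the vesicular glutamate transporter VGLUT3 (chr10:89574020-89621253). It was 1.80-fold lower with NAMPT (log2 -0.84 ± 0.16). WT livers did not overlap, from 34.1 to 53.1 CPM with the empty vector against 9.19 to 32.6 with NAMPT. LKO livers overlapped, at 31.8, 47.4, 26.8, 42.1 and 42.2 against 21.6, 18.2, 36.5, 29.0 and 31.5 CPM. Ehd3, an endocytic recycling ATPase (chr17:73804841-73832093), was 1.37-fold lower (log2 -0.46 ± 0.08), from 74.1 to 95.4 CPM over the empty vector libraries and from 41.7 to 83.3 over the NAMPT libraries.

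**Figure D2:**
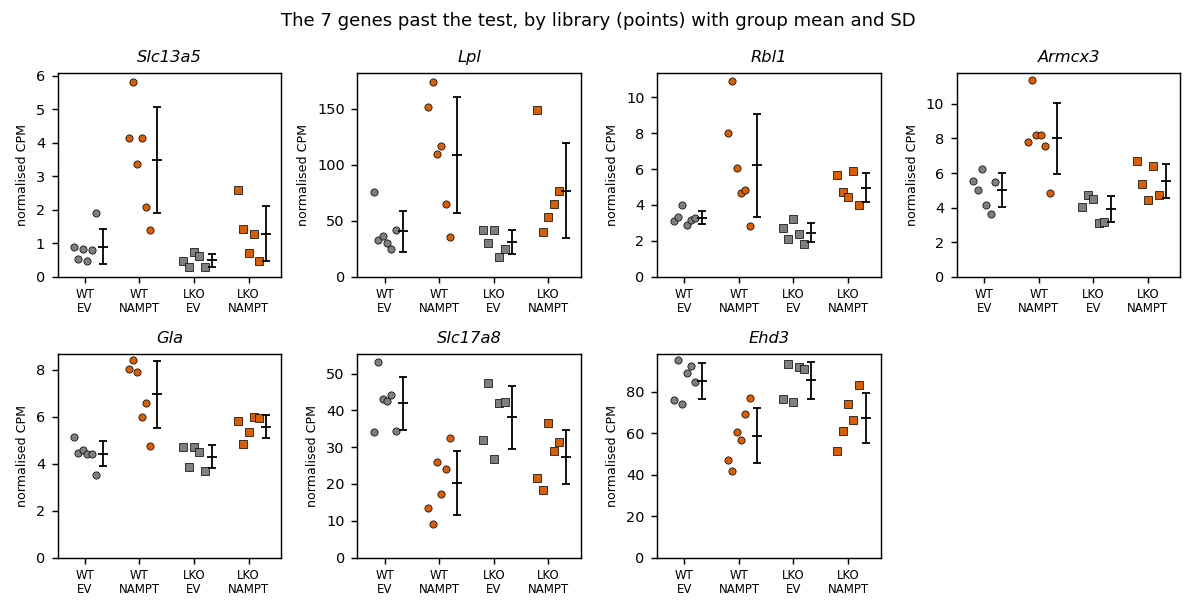
Normalised CPM of the 7 genes that passed the test in each of the 22 libraries (points; circles WT, squares LKO, grey EV, orange NAMPT), with group mean and SD on axes from 0. The NAMPT libraries sit higher for Slc13a5, Lpl, Rbl1, Armcx3 and Gla and lower for Slc17a8 and Ehd3, with WT NAMPT replicate 6 the least displaced WT NAMPT library for each gene.

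No gene separated all 11 NAMPT from all 11 empty vector libraries, and 1 (0.00718% of those tested) separated them within both genotypes in the same direction. It was Acad10, a gene of the acyl-CoA dehydrogenase family. WT livers ran from 34.1 to 58.5 CPM with the empty vector and from 15.4 to 30.9 with NAMPT. LKO livers were at 46.7, 46.4, 38.7, 38.7 and 54.1 CPM with the empty vector and at 37.4, 34.9, 34.6, 37.5 and 38.0 with NAMPT. Its log2 fold change of -0.46 ± 0.11 did not pass the adjusted threshold (adjusted p = 0.0646, limma).

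The genes of next smallest p in each direction are given here, none of which passed (adjusted p from 0.0608 to 0.0646, limma). On the higher side they included 2 kinases of immune cell receptor signalling, Lyn (log2 0.35) and Btk (0.87), the checkpoint ligand gene Cd276 (0.66), the planar polarity gene Vangl1 (0.41), the endocytic gene Ehd4 (0.54), the cell adhesion gene Flrt2 (0.92) and the DNA damage ubiquitin ligase gene Rfwd3 (0.27). On the lower side, Arntl, which encodes the core clock activator BMAL1, had the most negative estimate (-1.55 ± 0.34). Cyp26b1, a retinoic acid hydroxylase, was next at -1.0 ± 0.22. The others named were Slc45a3 (-0.69), the nucleoside transporter gene Slc29a1 (-0.54), Pnkd (-0.50), the peroxisomal acyltransferase gene Acnat1 (-0.46), the glycolytic regulator Pfkfb2 (-0.38), Mif4gd (-0.30) and Dirc2 (-0.27). All 23 genes named in this way, the 7 called included, had the same sign in both genotypes, which the naming rule required. For 21 of the 23 the WT estimate was the larger in size, and Rbl1 and Pfkfb2 were the exceptions.

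**Figure D3:**
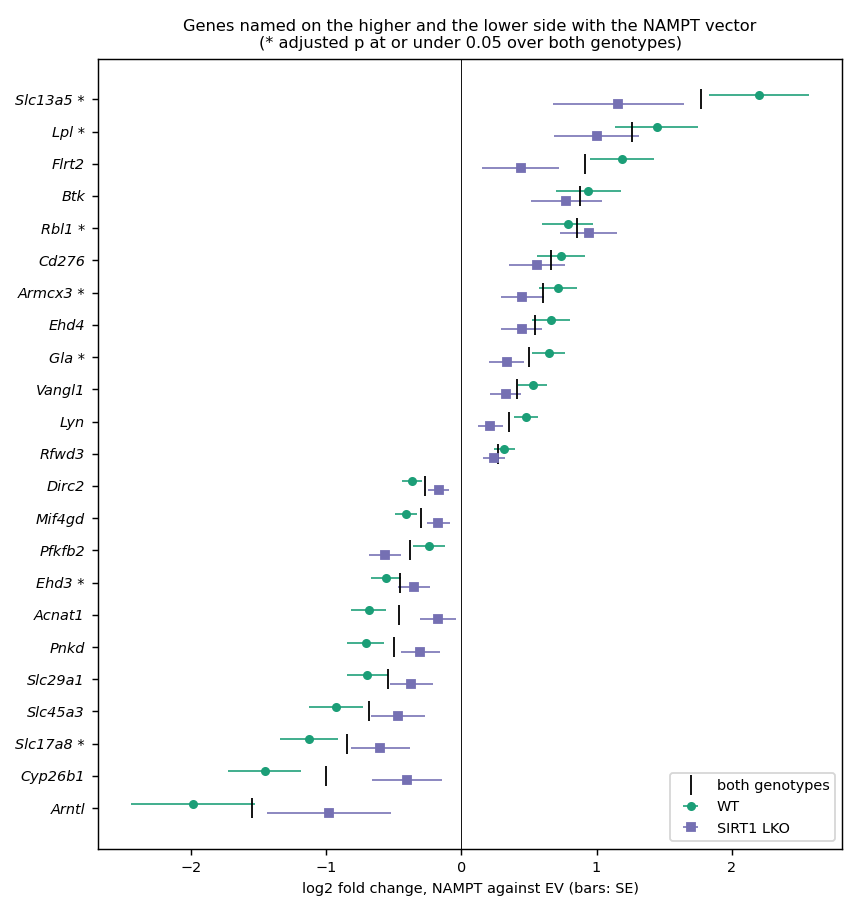
Log2 fold change of NAMPT against EV in WT (green circles) and LKO (purple squares) with SE, and over both genotypes (black ticks), for the 12 genes named on the higher side and the 11 on the lower side; asterisks mark the 7 with an adjusted p at or under 0.05. Slc13a5 has the highest estimate over both genotypes, 1.77, and Arntl the lowest, -1.55.

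Interferons act on a promoter motif, the interferon-stimulated response element, and induce antiviral enzymes and guanylate-binding proteins. None of the 25 listed interferon-stimulated genes passed the adjusted threshold. All 25 had positive estimates and 21 had an unadjusted p under 0.05, all 21 on the higher side (against 10.6% of genes tested). The list median was 0.61, against 0.00 over all genes, and it was 0.81 in WT and 0.42 in LKO. The estimates stayed positive without the 4 libraries of low weight (25 of 25, 21 at an unadjusted p under 0.05, median 0.66). With 2 surrogate variables in the fit the median was 0.40 and 6 had an unadjusted p under 0.05, and without WT NAMPT replicate 3 there were 13.

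Chosen after the values were seen, Oas1a, an oligoadenylate synthetase, had the highest estimate of the list at 1.04 ± 0.28 (adjusted p = 0.0807, limma). In WT it ran from 2.11 to 4.30 CPM with the empty vector and from 2.42 to 19 with NAMPT, and in LKO from 2.28 to 3.94 and from 1.92 to 7.61. Isg15, a ubiquitin-like modifier, had 0.85, Gbp3 0.80, the chaperone gene Rtp4 0.71 and the RNA sensor gene Ifih1 0.35 (adjusted p from 0.0802 to 0.133, limma). The members of highest level were Bst2 (0.27) and Stat2 (0.24). The groups overlapped for each of these genes except Ifih1 in LKO, where the empty vector libraries ran from 37.5 to 39.2 CPM and the NAMPT libraries from 44.0 to 56.9.

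The promoters of Oas1a, Isg15, Gbp3 and Cxcl10 are shown because they carry the interferon motif, searched as TTTCNNTTTC on both strands in the 250 bases before each RefSeq gene start (GRCm38.p6), overlapping matches included. Each line gives 120 bases, 5′ to 3′ on the strand of the gene, with the motif in capitals (as GAAANNGAAA where it lies on the opposite strand). For Oas1a (chr5:120907526-120907645, minus strand), Isg15 (chr4:156200819-156200938, minus strand) and Gbp3 (chr3:142559924-142560043, plus strand) the line ends at the base before the start, and for Cxcl10, a chemokine gene (chr5:92349020-92349139, minus strand), it begins 250 bases before it.
Oas1a: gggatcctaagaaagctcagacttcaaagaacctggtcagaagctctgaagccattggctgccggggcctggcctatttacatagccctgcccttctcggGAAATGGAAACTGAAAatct
Isg15: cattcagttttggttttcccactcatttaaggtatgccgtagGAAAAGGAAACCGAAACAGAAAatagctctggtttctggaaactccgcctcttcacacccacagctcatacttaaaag
Gbp3: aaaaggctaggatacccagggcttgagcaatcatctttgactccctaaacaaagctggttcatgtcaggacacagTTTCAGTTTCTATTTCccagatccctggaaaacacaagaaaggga
Cxcl10: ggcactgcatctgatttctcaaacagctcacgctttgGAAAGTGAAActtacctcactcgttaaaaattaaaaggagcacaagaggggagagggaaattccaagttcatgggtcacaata
Of the 25 list members 17 had a promoter in the reference table, and 10 of those 17 (58.8%) held the motif, against 3.38% of the tested genes that had one and 2.98% of all 32851 promoters. Of the MHC class II list 1 of 5 did (20.0%), and of the fatty acid synthesis list 0 of 18. The match is a description of the sequence and not of binding.

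Other immune lists had positive medians with no called member, each with a larger median in WT than in LKO. Of 29 chemokine and neutrophil recruitment genes, all had positive estimates and 21 an unadjusted p under 0.05 (median 0.74, with 1.28 in WT and 0.25 in LKO). Among the 29, Ccl4 was under 1 CPM in all 11 empty vector libraries and passed the filter through the NAMPT libraries, so that its sign is no separate result. Leaving out WT NAMPT replicate 3 took the count of 21 to 7 and leaving out replicate 4 of that group took it to 12, and it was 4 with 2 surrogate variables in the fit (median 0.19). The T cell chemoattractant gene Cxcl10 had 1.06 (adjusted p = 0.0998, limma), and the members of highest level were Ccl9 (0.48) and Cxcl9 (0.57). All 8 MHC class II genes had positive estimates and an unadjusted p under 0.05 (median 0.57; WT 0.82, LKO 0.19), among them Cd74 (0.49) and H2-Aa (0.45). The count of 8 became 2 without any 1 of 7 libraries (WT NAMPT replicates 2, 3 and 4, LKO NAMPT replicate 1, WT EV replicates 2 and 6 and LKO EV replicate 4), 4 without WT EV replicate 7 or WT NAMPT replicate 1, and 5 without LKO EV replicate 5. With 2 surrogate variables in the fit it was 0 and the median was 0.01. Of 32 Toll-like receptor and NF-kB genes, 16 were on the higher side and 1 on the lower at an unadjusted p under 0.05 (median 0.41). Without WT NAMPT replicate 3, 9 were on the higher side, and with the surrogate variables 6 were higher and 3 lower (median 0.06). The list included the cytokine gene Tnf (1.4, adjusted p = 0.0724), which was under 1 CPM in all 11 empty vector libraries and passed the filter through the NAMPT libraries, and the lipopeptide receptor genes Tlr1 (1.22, adjusted p = 0.0921) and Tlr2 (0.80, adjusted p = 0.0832, limma).

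Markers of several immune cell types had positive medians. They are read here against the 10.6% of all genes on the higher and 7.52% on the lower side at an unadjusted p under 0.05. The neutrophil markers S100a8, S100a9 and Csf3r and the macrophage markers Ccr2 and Cx3cr1 also belong to the chemokine list. Of 7 T and NK cell markers 6 had positive estimates and 0 an unadjusted p under 0.05 (median 0.25, and -0.0048 with 2 surrogate variables). Of 7 dendritic cell markers 5 had positive estimates and 1 an unadjusted p under 0.05 (median 0.14, and -0.10 with the surrogate variables). Of 11 markers of recruited and lipid-associated macrophages, 10 had positive estimates and 8 an unadjusted p under 0.05 (median 0.81, with 1.42 in WT and 0.15 in LKO). No marker of the 11 was at 0 in all 22 libraries. The count of 8 became 0 without WT NAMPT replicate 3, 2 without WT NAMPT replicate 4, 3 without LKO NAMPT replicate 1, 4 without WT NAMPT replicate 2, LKO EV replicate 4 or WT EV replicate 7, and 5 without WT EV replicate 2. With 2 surrogate variables it was 2, with a median of 0.13. Their summed level ran from 77.5 to 240 CPM in WT with the empty vector and from 78.7 to 617 with NAMPT, and from 90.9 to 227 and from 111 to 359 CPM in LKO. Lyz2, lysozyme, had an estimate of 0.56 and Spp1 one of -0.19. The integrin gene Itgax, also on the dendritic cell list and its highest member, had 1.17. Of 9 Kupffer cell markers, 4 were on the higher side and 1 on the lower at an unadjusted p under 0.05 (1 and 0 with 2 surrogate variables, where the median went from 0.38 to 0.11), with Cd5l at 0.60, the scavenger receptor gene Marco at 1.88 and Clec4f, a defining marker, at 0.14 (unadjusted p = 0.187, limma). The 6 neutrophil markers tested all had positive estimates (median 0.93, and 0.27 with 2 surrogate variables), among them Csf3r (0.74) and S100a9 (0.98), and their summed level did not exceed 29.5 CPM in any library. Of the 6, 3 had an unadjusted p under 0.05, 0 with the surrogate variables, 1 without WT NAMPT replicate 3 or 4, 5 without WT EV replicate 4 or LKO NAMPT replicate 5, and 6 without LKO EV replicate 3.

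Matrix genes and stellate cell markers had medians of opposite sign in the genotypes. Of 28 collagen and matrix genes, 7 were on the higher and 0 on the lower side at an unadjusted p under 0.05, against 10.6% and 7.52% of all genes. The median was 0.32, with 0.81 in WT and -0.14 in LKO, and 20 had an unadjusted interaction p under 0.05, against 21.2% of genes tested. The 7 became 2 without WT NAMPT replicate 2, 3 or 4, WT EV replicate 7 or LKO NAMPT replicate 1 and 18 without LKO NAMPT replicate 2, and with 2 surrogate variables 1 was higher and 3 lower (median -0.06). Of 10 stellate cell and fibroblast markers, 2 were higher and 1 lower, near the shares of all genes (median 0.26, with 0.61 in WT and -0.16 in LKO). An unadjusted interaction p under 0.05 was found for 6 of the 10. With 1 library left out 0 to 5 were higher, and with 2 surrogate variables 0 were higher and 1 lower (median -0.09). The summed level of these markers ran from 431 to 615 CPM in WT with the empty vector and from 419 to 835 with NAMPT, and from 537 to 591 and from 471 to 670 CPM in LKO.

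In bulk liver, more cells of a type and more RNA per cell cannot be told apart. Across the 22 libraries the mean level of the interferon-stimulated list and that of the recruited macrophage markers had a Pearson r of 0.707 and a Spearman rho of 0.735, given as a description since they share libraries and depth. The part of the macrophage markers in the interferon-stimulated values was not tested. The hepatocyte marker list had a median of -0.11, with 2 of 8 on the lower side at an unadjusted p under 0.05. Ighm, an immunoglobulin heavy chain gene of B cells, had an estimate of -1.32 ± 0.39 (adjusted p = 0.0971, limma), beside a median of 0.31 over the B and plasma cell markers, which was -0.07 with 2 surrogate variables in the fit.

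**Figure D4:**
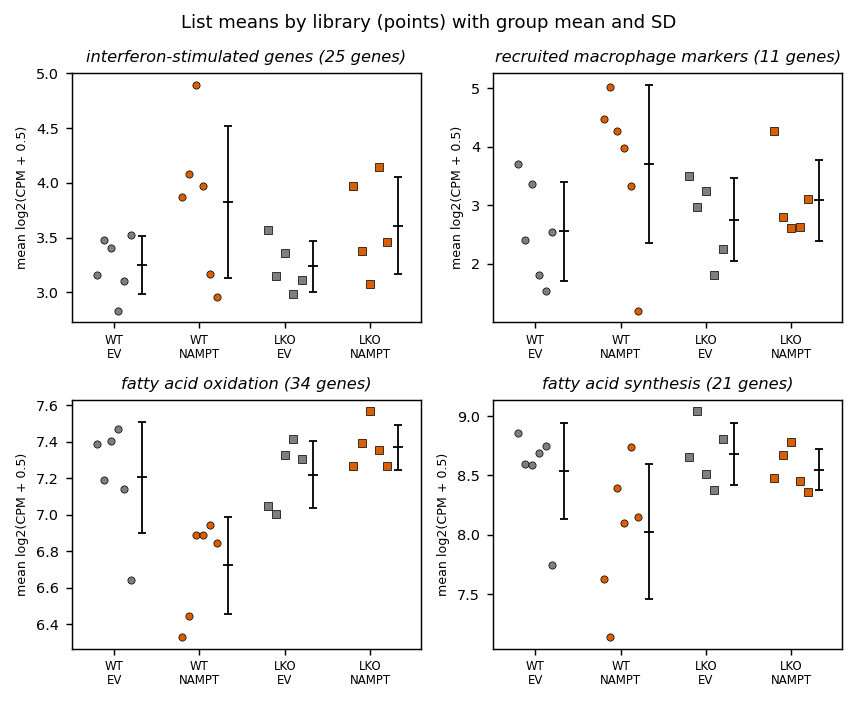
Mean log2(CPM + 0.5) of the members of 4 lists in each of the 22 libraries (points; circles WT, squares LKO, grey EV, orange NAMPT), with group mean and SD. The interferon-stimulated mean runs from 2.96 to 4.90 in WT NAMPT libraries and from 2.83 to 3.53 in WT EV libraries, and the fatty acid oxidation mean differs between vectors in opposite directions in WT and LKO.

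The complement list held components made mainly by hepatocytes, such as C3, C6 and C9, beside genes of other cells, among them the C1q genes and Cfd. Which cells the differences came from was not tested. Of 24 tested, 9 had an unadjusted p under 0.05, all on the higher side (median 0.20, against 10.6% of all genes), and none was called. The fit with 2 surrogate variables had 6 higher (median 0.08). With 1 library left out 7 to 12 were higher and 0 to 3 lower, the 3 without LKO EV replicate 3 or WT NAMPT replicate 6. The terminal pathway genes C9 (0.52 ± 0.13, adjusted p = 0.0724) and C6 (0.61 ± 0.17, adjusted p = 0.0832, limma) had similar estimates in the genotypes, 0.46 and 0.55 for C9 and 0.60 and 0.53 for C6. For C9 the LKO libraries did not overlap (195 to 294 against 301 to 394 CPM). The central component C3 had 0.33, with 0.55 in WT and 0.14 in LKO. Of 30 cell cycle genes, 29 had positive estimates and 11 an unadjusted p under 0.05, all on the higher side (against 10.6% of all genes; median 0.50, WT 0.80, LKO 0.31). Without WT NAMPT replicate 5 there were 18, and with 2 surrogate variables 4 were higher and 2 lower (median 0.0076). The list included the replication helicase genes Mcm5 (0.80) and Mcm2 (0.56) and, as the members of highest level, Ccnd1 (0.87, cyclin D1) and Pcna (0.16).

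None of the 6 genes listed as a lipogenic panel was called. The estimates were negative for each: -0.47 ± 0.17 for Pklr (liver pyruvate kinase), -0.40 ± 0.25 for Fasn (fatty acid synthase), -0.39 ± 0.21 for Elovl6, -0.30 ± 0.19 for Gpam, -0.21 ± 0.15 for Scd1 and -0.18 ± 0.15 for Acaca. The signs of Elovl6, Gpam and Scd1 turned with 2 surrogate variables in the fit. Pklr alone had an unadjusted p under 0.05 (adjusted p = 0.149, limma). That count of 1 was 5 without WT EV replicate 8, 3 without WT NAMPT replicate 5, 2 without LKO EV replicate 4 or LKO NAMPT replicate 2, and 0 with the surrogate variables. Fasn ran from 1022 to 4163 CPM over the empty vector libraries and from 470 to 3467 over the NAMPT libraries. Of the 21 genes of the wider fatty acid synthesis list, 6 were on the lower side and 1 on the higher at an unadjusted p under 0.05, against 7.52% and 10.6% of all genes, and the median of -0.33 was 0.01 with the surrogate variables. Elovl3, an elongase of very long chain fatty acids, had -1.15 ± 0.35 (adjusted p = 0.104, limma).

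Genes that link sugar to lipogenesis and store triglyceride are given here by members chosen after their values were seen. Mlxipl, which encodes the carbohydrate-responsive factor ChREBP, had -0.33 (WT -0.40, LKO -0.33) and the fructokinase gene Khk had -0.38 (WT -0.56, LKO -0.24), at adjusted p of 0.107 and 0.108 (limma). Lpin1, which encodes a phosphatidate phosphatase and coactivator, had -0.96 ± 0.24 (WT -0.76, LKO -1.28, adjusted p = 0.0724). Plin5, a lipid droplet protein gene of oxidative tissues, had -0.43 ± 0.10 (WT -0.46, LKO -0.42, adjusted p = 0.0646, limma). Both belong to the 22 genes of triglyceride assembly and lipid droplets, of which 5 were on the lower and 0 on the higher side at an unadjusted p under 0.05 (against 7.52% and 10.6% of all genes). The median of that list was -0.15, with -0.27 in WT and 0.07 in LKO. With 2 surrogate variables 2 were lower and 7 higher (median 0.08). Without WT EV replicate 8, 8 were on the lower side, and without WT EV replicate 1, WT NAMPT replicate 3 or WT NAMPT replicate 4 there were 3. Abcg1, a cholesterol efflux transporter gene, had 0.53 ± 0.15 (adjusted p = 0.0869, limma).

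For fatty acid oxidation the average joined medians of opposite sign. Of 34 genes of fatty acid oxidation and PPARa targets, 30 had negative estimates, 5 had an unadjusted p under 0.05 on the lower side and 0 on the higher side (against 7.52% and 10.6% of all genes), and the median was -0.15. That median was -0.39 in WT and 0.11 in LKO, and 17 of the 34 had an unadjusted interaction p under 0.05, against 21.2% of genes tested. With 2 surrogate variables 0 were lower and 2 higher, and the median over both genotypes was 0.03. With 1 library left out 1 to 11 were lower. Fabp1, the liver fatty acid binding protein gene, had negative estimates in both (WT -0.49, LKO -0.33). Cholesterol synthesis had 22 of 24 negative estimates (median -0.19; WT -0.37, LKO -0.01), with Hmgcs1 at -0.94 in WT and 0.10 in LKO. Its median was -0.0049 with 2 surrogate variables. Of the 24 genes 3 were on the lower side at an unadjusted p under 0.05 (against 7.52% of all genes), 13 without WT EV replicate 8, 7 without WT NAMPT replicate 5, 6 and 5 without LKO EV replicates 3 and 1, 5 without LKO NAMPT replicate 3, 2 without WT EV replicate 2, WT NAMPT replicates 3 or 4 or LKO NAMPT replicate 1, and 1 without WT EV replicate 1 or LKO EV replicate 2.

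Bile acid, retinoid and xenobiotic genes had negative medians over both genotypes, and WT and LKO estimates were not tested against each other by list. The medians were negative in WT only, at -0.28, -0.33 and -0.37, against 0.03, 0.0027 and 0.10 in LKO. An unadjusted interaction p under 0.05 was found for 8 of 24, 11 of 22 and 16 of 40 members, against 21.2% of genes tested (limma). Over all genes, 7.52% were on the lower and 10.6% on the higher side at an unadjusted p under 0.05. Of 24 bile acid genes, 7 were on the lower and 1 on the higher side at an unadjusted p under 0.05 (median -0.22). With 2 surrogate variables 0 were lower and 2 higher (median -0.02). The highest estimate of the list, 1.25 for Slc51b, belongs to a gene under 1 CPM in all 11 empty vector libraries. It passed the filter through the NAMPT libraries. Cyp8b1, the sterol 12-alpha-hydroxylase gene that sets the cholic acid share, had -0.92 over both (WT -1.85, LKO 0.03, interaction adjusted p = 0.0698), and Slc10a1, the sinusoidal bile acid importer gene, had -0.63 (WT -1.06, LKO -0.20, limma). Of 22 retinoid genes, 8 were on the lower and 2 on the higher side, with Retsat at -0.60 (WT -1.12, LKO -0.06) and the retinal reductase gene Dhrs3 at -0.32 (WT -0.55, LKO -0.08). Of 40 xenobiotic genes, 12 were on the lower and 4 on the higher side, with the nuclear receptor gene Nr1i3 (CAR) at -0.56 and Cyp2c37 at -1.03 (WT -1.74, LKO -0.10). With the surrogate variables 0 retinoid genes were higher and 3 lower (median -0.07), and 2 xenobiotic genes were higher and 1 lower (median 0.03). With 1 library left out 1 to 7 xenobiotic genes were higher. Cyp3a11, the main steroid and drug hydroxylase gene and one of the xenobiotic members of highest level, had 0.33 (WT 0.04, LKO 0.56, adjusted p = 0.234, limma). Its LKO libraries ran from 923 to 1249 CPM with the empty vector and from 1319 to 3457 with NAMPT, without overlap. None of these genes was called.

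**Figure D5:**
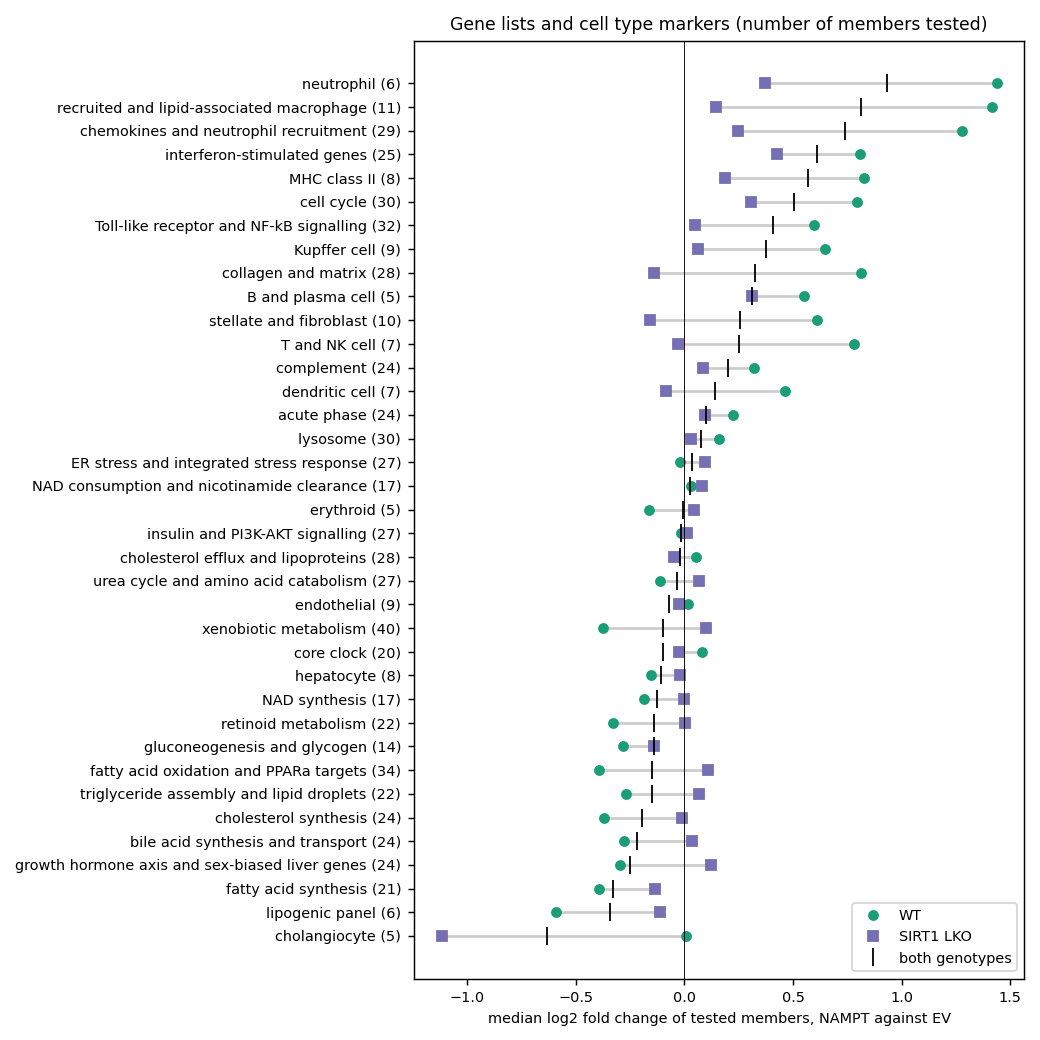
Median log2 fold change of the tested members of each gene or marker list with at least 5 members tested, in WT (green circles), LKO (purple squares) and over both genotypes (black ticks); the number of members tested is in brackets. The WT median exceeds the LKO median for the immune lists at the top (1.42 against 0.15 for recruited macrophage markers) and lies below it for fatty acid oxidation (-0.39 against 0.11).

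The core clock runs on BMAL1 with CLOCK or NPAS2, which drive the period, cryptochrome and Rev-erb genes and the output factor DBP. Of 20 clock genes, 6 were on the lower and 3 on the higher side at an unadjusted p under 0.05 (median -0.10, against 7.52% and 10.6% of all genes), and none was called. Under 2 surrogate variables 4 were lower and 4 higher (median 0.08). With 1 library left out 4 to 7 were lower and 0 to 5 higher, with 0 higher without WT EV replicate 4, 1 without WT EV replicate 2, LKO EV replicate 2, WT NAMPT replicate 4 or LKO NAMPT replicate 1, and 5 without LKO EV replicate 4. Arntl ran from 4.87 to 18.1 CPM in WT with the empty vector and from 1.56 to 7.12 with NAMPT. In LKO it was between 3.87 and 13.7 CPM and between 1.81 and 8.48, so that both genotypes overlapped. The empty vector libraries were spread widely. WT EV replicates 1, 2 and 4 and LKO EV replicates 1 and 2 had 13.4 to 18.1 CPM, and the other 6 had 3.87 to 10.1, a range that overlapped the NAMPT libraries. The same 5 had core clock scores of 3.77 to 5.08, against -3.76 to -0.132 in the other 6 and -4.57 to 3.17 in the NAMPT libraries (the score is the first principal component of the core clock genes, Arntl included, with the sign of Arntl). Npas2 had -1.40 ± 0.45 (WT -1.98, LKO -0.78, adjusted p = 0.118) and Nfil3, a repressor opposite to DBP, -0.67 ± 0.17 (adjusted p = 0.0724, limma). Dbp had 0.83 and the rhythmic deadenylase gene Noct 0.71, the latter with 1.42 in WT and -0.19 in LKO. The members of highest level, Nr1d1 (-0.15) and Tef (0.30), had unadjusted p of 0.323 and 0.192. Time of day at collection is not given in the labels, so its part in these values was not tested.

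None of the genes that make or use NAD+ was called. Of 17 genes of NAD+ synthesis, 2 were on the higher side at an unadjusted p under 0.05 (against 10.6% of all genes) and 1 on the lower (0 to 7 with 1 library left out, the 7 without LKO NAMPT replicate 2). The 2 were Nampt and the nicotinamide riboside kinase gene Nmrk1 (0.53 ± 0.16, adjusted p = 0.104). In all 12 had negative estimates, and the median of -0.13 was 0.02 with 2 surrogate variables in the fit. Of 17 genes of NAD+ consumption and nicotinamide clearance, 3 were on the higher and 1 on the lower side. Parp14, an interferon-inducible mono-ADP-ribosyltransferase gene, had 0.58 ± 0.13 (adjusted p = 0.0646) and Acmsd, which diverts tryptophan away from NAD+ synthesis, 0.77 ± 0.22 (adjusted p = 0.0936, limma). Sirt3, the mitochondrial deacetylase gene, had -0.26 ± 0.10 (adjusted p = 0.163, limma).

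The vector effect differed between genotypes for 1 gene (0.00718%) at an adjusted p of 0.05, and 2956 genes (21.2%) had an unadjusted interaction p under 0.05 (limma). The edgeR quasi-likelihood test called 0 interactions (1452 unadjusted), and leaving out LKO NAMPT replicate 1 gave 606 and leaving out WT NAMPT replicate 6 gave 528. The gene was Adamtsl2, which encodes a secreted matrix protein, and its average of -0.17 ± 0.22 joined 0.72 in WT and -1.18 in LKO (interaction adjusted p = 0.000435). WT livers ran from 3.44 to 4.38 CPM with the empty vector and from 3.77 to 8.63 with NAMPT. LKO livers were at 5.71, 7.62, 6.76, 5.95 and 6.80 CPM with the empty vector and at 5.51, 2.40, 3.97, 2.58 and 2.98 with NAMPT, without overlap. The genes of next smallest interaction p did not pass. Cyp4a10, a PPARa-responsive fatty acid hydroxylase gene, had -1.93 in WT and 0.71 in LKO (interaction adjusted p = 0.0501), and Zc3h12a, which encodes the RNase Regnase-1, had 0.62 and -0.44 (0.0614).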

How the data were processed

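RNA of 25 mouse livers had been sequenced as single reads after poly-A selection, per the study's methods. Small noncoding RNAs such as Rn7sk and Rpph1 took from 2.08% (LKO NAMPT replicate 3) to 8.27% (LKO EV replicate 5) of the reads in the Western diet libraries. The selection was not checked further. Per the labels and methods, the authors aligned to GRCm38 with STAR (2.5.1a in the submitters' processing notes) and counted with featureCounts (1.4.6-p5 in those notes). The deposited files gave each gene's read count, with CPM and RPKM that the authors computed from it. CPM recomputed from the deposited counts matched the deposited CPM, and RPKM was not used.

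Here the counts of 22 Western diet libraries were fitted on genes over 1 CPM in 2 or more libraries, without 4 ribosomal RNA genes (13935 genes). TMM factors (edgeR 4.0.16), voom with sample quality weights and a model of genotype plus vector (limma 3.58.1, R 4.3.3) gave log2 fold changes with moderated tests and Benjamini-Hochberg adjustment over all genes tested, with a threshold of 0.05. Effects within genotypes and the interaction came from a group means model. The WT and LKO estimates share no libraries. CPM in the text are after TMM. Exact two-sided permutation within genotype used log2(CPM + 0.5). The labels do not say which libraries came from separate animals, so that p-values measure only the spread between libraries. The study's figure on these transcriptomes gives a smaller n for WT EV, WT NAMPT and LKO NAMPT than the libraries used here.

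The genes and lists were chosen with earlier results of these data known. Named were Nampt, Sirt1, Fgf21 and the lipogenic panel; the 12 genes on each side that were called or, to fill, had the smallest p, among genes whose mean log2 CPM was 0 or more and whose sign was shared by both genotypes; called list members (up to 6) or the 2 members of highest level of a list without calls; genes without overlap; and the 3 smallest interaction p. Highest-level members of other lists are covered by the list counts. Other names were chosen after their values were seen. Some genes that the rules name are not reported here. In simulated counts at the library sizes of this comparison (13935 genes, 200 changed) the fit recovered 85.5% of 2-fold and 61.5% of 1.5-fold changes, with 5 and 3 false calls. With no change simulated there was 1 false call. The simulated libraries were independent around 1 mean per gene, with no genotype effect, no libraries of low quality and no shared variation. The rates may therefore not hold for the data. The replicate numbers did not pair libraries: deviations from group means of 9 same-numbered pairs correlated between -0.228 and 0.418. Alternatives included the edgeR quasi-likelihood test, DESeq2 1.42.0, sva 3.50.0 surrogate variables, other scalings and filters, and each library left out.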

Additional observations from a re-analysis of the deposited data

Results flagged for a closer look

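The interaction of vector and genotype passed the test for Adamtsl2, at a difference of -1.9 on the log2 scale (LKO minus WT, limma).

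Among 95 named genes in 4 groups (380 sets of libraries, on log2(CPM + 0.5)), 14 (3.68%) held a library far from the rest of its group by Dixon's ratio, where chance gives about 1 in 20. LKO NAMPT replicate 1 held 6 of the 14. It was at 39.0 CPM for Lyn (others 31.6 to 32.9), 5.72 for Tlr1 (others 1.61 to 2.34) and 11.9 for Itgax (others 2.31 to 3.63). It was at 308 CPM for Cyp4a10 (others 542 to 576), 156 for Cyp8b1 (others 324 to 401) and 12.5 for Elovl3 (others 97.5 to 186). WT EV replicate 8 held 4 low values, 1022 CPM for Fasn (others 2558 to 4163), 193 for Gpam (others 412 to 642), 80.5 for Hmgcs1 (others 157 to 233) and 5.22 for Ighm (others 23.6 to 40.4). The other 4 were Vangl1 in LKO EV replicate 1 (11.9 CPM, others 8.12 to 8.87), Cd276 in WT NAMPT replicate 2 (11.3, others 5.27 to 6.54), Btk in WT NAMPT replicate 6 (1.24, others 2.73 to 4.17) and Tnf in WT EV replicate 6 (0.0916, others 0.491 to 0.675).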

How the results depend on the processing

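The 7 calls over both genotypes became 0 with the edgeR quasi-likelihood test (2399 at an unadjusted p under 0.05), 0 without sample quality weights (2405) and 0 with 2 surrogate variables (1470). They became 388 with DESeq2, 220 with the group means averaged, 421 with a core clock score as covariate, 1 without a filter on low counts (not 1 of the 7) and 2 without the 4 libraries of low weight, an alternative chosen after seeing the data (1 of the 7). The 7 were among the genes called by DESeq2, the group means and the clock covariate. Leaving out 1 library gave 0 to 534 calls, with 11 without WT EV replicate 4, 12 without WT EV replicate 8, 30 and 128 without LKO EV replicates 1 and 3, 54, 160 and 316 without LKO NAMPT replicates 4, 2 and 5 and 357 without WT NAMPT replicate 5. The 1 interaction became 0 with edgeR (1452 unadjusted), 0 without weights (1513), 0 with surrogate variables (789), 14 with DESeq2, 5 with upper-quartile factors, 5 with library size only, 5 without a filter and 390 with the clock score, and leaving out 1 library gave 1 to 606 (306 without WT NAMPT replicate 5, 41 without WT EV replicate 8). The lipogenic panel had 0 to 1 calls when 1 library was left out, the 1 without WT NAMPT replicate 5. The cause of these changes was not tested.

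The replicate numbers did not pair the libraries. With a replicate block 114 genes were called over both genotypes and 39 for the interaction, 4 of the lipogenic panel had an unadjusted p under 0.05, and the exact test of Nampt gave 0.336 (p = 0.0938, exact sign flips). With library size only, the exact test of Sirt1 gave 0.146 (p = 0.0384). Leaving out 1 library gave 0.294 to 0.456 for Nampt, 0.249 to 0.706 for Fgf21 and 0.0335 to 0.104 for Sirt1.

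Signs turned with 2 surrogate variables for Fgf21 (-0.12), Elovl6 (0.0385), Gpam (0.0574), Scd1 (0.0156), Cd74 (-0.0716), H2-Aa (-0.0712) and Zc3h12a (-0.12), and with the clock score for Sirt1 (-0.0168), Tef (-0.138) and Spp1 (0.0528). Leaving out 1 library turned Sirt1 (-0.0233 to 0.0625) and Adamtsl2 (-0.375 to 0.0198). The medians of 19 of 39 lists also turned with the surrogate variables, among them fatty acid synthesis, fatty acid oxidation, triglyceride assembly, clock, xenobiotic and NAD+ synthesis genes and the B and plasma cell markers. With 1 library left out, the genes on the lower side at an unadjusted p under 0.05 numbered 4 to 13 for fatty acid synthesis (13 without WT EV replicate 8), 1 to 11 for fatty acid oxidation (11 without LKO EV replicate 2, 1 without WT NAMPT replicate 3 or 4), 4 to 14 for xenobiotic (4 without WT NAMPT replicate 4), 4 to 9 for bile acid and 4 to 10 for retinoid genes (4 for both without WT NAMPT replicate 3). Counts of a few reads limit Slc13a5, Tnf, Ccl4 and Slc51b in single libraries.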
